A study of Mus musculus with 4 samples.

Results

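Cytosolic ribosomal proteins are the protein subunits of the ribosome that translates nuclear-encoded mRNA. The genes described here were taken from the deposited count table by symbol, as rows named Rps or Rpl with a number, together with Rplp0, Rplp1, Rplp2 and Rpsa. Symbols of named pseudogenes, Rpl10, Rpl10l and the Rps6k kinases were left out. The rule gave 88 of the 50763 genes in the table. Of these, 31 are canonical proteins of the small subunit, 45 are canonical proteins of the large subunit and 7 are expressed copies of a canonical gene, called paralogs here. The other 5 (Rpl6l, Rpl32l, Rps12l1, Rps3a2 and Rps3a3) carry a member-like symbol but are processed pseudogenes in GENCODE M21.

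Polyadenylated RNA was sequenced from purified mouse testis cells labelled pachytene spermatocytes, the meiotic cells in which homologous chromosomes are paired along their length. There were 2 libraries from mice of the genotype Hsf5 knockdown and 2 from wild-type (WT) mice, each labelled a biological replicate. Hsf5 encodes a transcription factor related to the heat shock factors and made mainly in testis. The labels state no purification or knockdown method, age, strain or number of mice per library, so the p-values measure only the spread between these 4 libraries.

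A ribosome needs its protein subunits in equal numbers, and their genes are accordingly expressed together at high levels in most cells. Many of their mRNAs begin with a terminal oligopyrimidine (TOP) tract, a run of C and T bases at the very start of the transcript through which the mTORC1 kinase and the RNA-binding protein Larp1 control translation. In pachytene spermatocytes the X chromosome is silenced, and several X-linked ribosomal protein genes have autosomal copies that are active in male germ cells. Rpl39l, the copy of X-linked Rpl39, encodes a protein that lines the exit tunnel for the nascent chain and is needed for sperm formation in mice.

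Rpl39l and Rpl39 are the pair in which the copy is best known as a germ cell gene, and their coding sequences (GENCODE M21, without the stop codon) are printed to show how far a sequencing read can tell the copy from its parent. Each has 153 coding bases. Capitals mark the 23 positions at which they differ, which leaves 85.0% identity and a longest identical stretch of 38 bases.
Rpl39l: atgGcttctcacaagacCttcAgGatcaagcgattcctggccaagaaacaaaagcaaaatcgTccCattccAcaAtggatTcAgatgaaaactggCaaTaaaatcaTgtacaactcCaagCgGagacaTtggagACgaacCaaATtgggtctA
Rpl39: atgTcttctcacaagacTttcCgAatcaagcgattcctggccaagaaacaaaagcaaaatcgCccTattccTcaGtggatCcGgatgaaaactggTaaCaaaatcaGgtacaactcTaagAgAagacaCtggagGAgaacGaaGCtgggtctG
The other coding pairs were between 59.8% (Rpl7l1 and Rpl7) and 87.7% (Rpl36al and Rpl36a) identical over their aligned coding bases, with longest identical stretches of 10 to 26 bases. Rps4l is annotated in GENCODE M21 as a transcribed processed pseudogene with no coding sequence, and 785 bases of its transcript aligned to Rps4x at 79.9% identity, with a longest identical stretch of 35 bases.

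The depth was 42479164 and 33947608 counts in knockdown replicates 1 and 2, and 39331933 and 33287428 counts in WT replicates 1 and 2. Levels are given as CPM, counts brought to a common library total and scaled with TMM factors, which assume that most genes do not differ. Hsf5 itself had 287 and 238 CPM in the knockdown libraries, against 586 and 449 CPM in WT (log2 fold change -0.98, SE 0.31; edgeR quasi-likelihood test, adjusted p = 0.0217). Of 10 pachytene markers 7 were lower in the knockdown and 1, Sycp1, was higher, and their summed level was 2426 and 2127 CPM in knockdown libraries, against 10263 and 9437 CPM in WT libraries. All 8 spermatid markers were lower (23.1 and 15.4 CPM summed in the knockdown, 3229 and 1539.8 CPM in WT). Markers of other cells were higher, with 12 of 12 Sertoli markers (3477 and 4259.5 CPM summed in the knockdown, 165 and 416 CPM in WT), 6 of 6 Leydig markers (1233 and 2476 CPM, against 105 and 714 CPM in WT), 5 of 6 macrophage markers (141 and 47.3 CPM, against 9.30 and 9.77 CPM in WT), 3 of 4 peritubular and endothelial markers (91.0 and 36.1 CPM, against 5.81 and 11.8 CPM in WT), 7 of 10 spermatogonial markers (716 and 674 CPM, against 177 and 168 CPM in WT) and 4 of 6 leptotene and zygotene markers, with 1 lower (841 and 482 CPM, against 383 and 285 CPM in WT). Every marker on these lists had a count in at least 1 library.

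The 3 X-linked members were the ones that rose most. Rps4x, a protein of the small subunit, had 78.3 and 56.8 CPM in the knockdown libraries, against 3.82 and 9.91 CPM in WT. Rpl36a, of the large subunit near the site where tRNA leaves, had 45.8 and 26.7 CPM in the knockdown libraries, against 2.95 and 3.997 CPM in WT. Rpl39, the tunnel protein, had 53.8 and 29.9 CPM in the knockdown libraries, against 2.44 and 7.33 CPM in WT. In all 3 genes both knockdown libraries lay far above both WT libraries, and WT replicate 1 was the lowest library.

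The log2 fold changes were 3.38 (SE 0.45) for Rpl36a, 3.30 (SE 0.49) for Rps4x and 3.10 (SE 0.57) for Rpl39, with adjusted p of 0.00027, 0.00049 and 0.00147 (edgeR quasi-likelihood test, Benjamini-Hochberg adjustment over 23594 genes, n = 2 per group). Under each of 13 other fits and subsets these 3 genes passed as higher, with log2 fold changes from 2.03 to 4.17 and adjusted p of at most 0.0394. Their share of the counts of all members was 0.609% and 0.776% in the knockdown libraries, against 0.0533% and 0.141% in the WT libraries. X-linked genes as a whole moved the same way, with 557 of 821 tested called higher and a median log2 fold change of 2.89, so the rise is not particular to ribosomal protein genes. Spermatogonial and somatic markers, from cells in which the X chromosome is active, were higher in the same libraries, and their part in the rise was not tested. More transcripts per cell and more cells that hold them cannot be told apart in these bulk libraries.

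**Figure D1:**
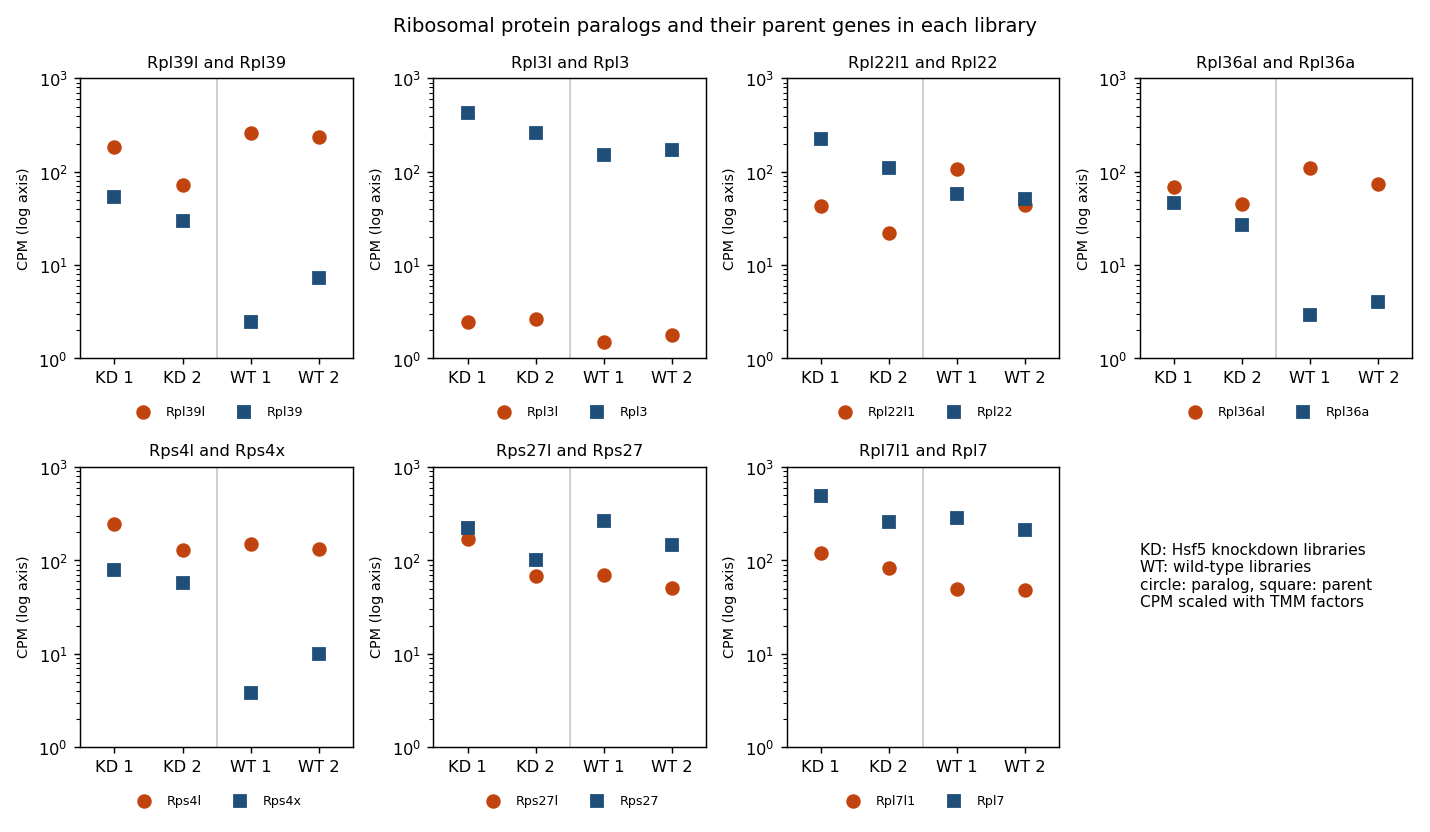
Level of each paralog (circles) and its parent gene (squares) in CPM on a log axis, in Hsf5 knockdown (KD) libraries 1 and 2 and wild-type (WT) libraries 1 and 2. Rpl39, Rpl36a and Rps4x sit between 2.44 and 9.91 CPM in WT libraries and between 26.7 and 78.3 CPM in knockdown libraries, while their autosomal copies lie between 45.7 and 263 CPM in all libraries.

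The autosomal copies of these 3 genes did not pass the test. Rpl39l had 186 and 71.9 CPM in the knockdown libraries, against 263 and 236 CPM in WT. Both knockdown libraries thus lay below WT under TMM scaling (log2 fold change -0.95, SE 0.42, edgeR adjusted p = 0.0765, not past 0.05). With library totals only its log2 fold change was -0.54 (edgeR adjusted p = 0.26). Rpl36al, the copy of Rpl36a, had 69.2 and 45.7 CPM in the knockdown libraries, against 110 and 74.9 CPM in WT, again with both knockdown libraries below WT (-0.68, SE 0.33; edgeR, adjusted p = 0.102). Rps4l, the copy of Rps4x, had 243 and 129 CPM in the knockdown libraries, against 151 and 134 CPM in WT, and the groups overlapped (0.39, SE 0.35; edgeR, adjusted p = 0.36). Rpl39l passed as lower in 5 of 13 other fits and subsets, among them the one without knockdown replicate 1, the higher of the knockdown libraries.

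Set against each other within a library, where no scaling enters, the balance of copy and parent differed between the groups. The log2 ratio of Rpl39l to Rpl39, per transcript length, was 1.95 and 1.42 in the knockdown libraries, against 6.89 and 5.16 in WT. For Rpl36al and Rpl36a the ratio was 0.47 and 0.65 in the knockdown libraries, against 5.09 and 4.10 in WT, and for Rps4l and Rps4x it was 1.68 and 1.23, against 5.35 and 3.80 in WT. The copy therefore exceeded its X-linked parent in every library, and by a smaller margin in the knockdown. The mean difference, knockdown minus WT, was -4.34 for Rpl39l, -4.03 for Rpl36al and -3.12 for Rps4l. The groups did not overlap in these pairs, and 2 libraries against 2 cannot give an exact two-sided permutation p below 0.333, the value of each.

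Copy and parent were also added together. Unlike the ratios, these sums carry the TMM scaling, with factors of 1.11 and 1.22 in the knockdown libraries, against 0.854 and 0.865 in WT. Their comparison between libraries rests on that scaling, and the sums were not taken under another. For Rpl39l and Rpl39 the sum was 427 and 179.5 CPM per kilobase of transcript in the knockdown libraries, against 481 and 441 in WT. For Rpl36al and Rpl36a it was 226 and 142 CPM per kilobase in the knockdown libraries, against 215 and 151 in WT. The Rpl36a pair thus had overlapping sums in the groups, whereas both knockdown sums of the Rpl39 pair were below both WT sums. For Rps4l and Rps4x the sum was 338 and 195 CPM per kilobase in the knockdown libraries, against 164 and 152 in WT, so it was higher in both knockdown libraries.

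Rpl22 and Rpl22l1 were the pair in which both genes passed the test, in opposite directions. Rpl22 is an RNA-binding protein of the large subunit that is known in mice to repress the expression of Rpl22l1, its copy. Rpl22 had 226 and 110.0 CPM in the knockdown libraries, against 57.6 and 51.0 CPM in WT (log2 fold change 1.63, SE 0.37; edgeR, adjusted p = 0.00448). Rpl22l1 had 42.5 and 22.0 CPM in the knockdown libraries, against 106 and 44.6 CPM in WT (-1.22, SE 0.47; edgeR, adjusted p = 0.0451). The WT libraries differed more than 2-fold in Rpl22l1, and knockdown replicate 1 lay just under WT replicate 2. The Rpl22l1 call was lost with library totals only (log2 fold change -0.80, edgeR adjusted p = 0.156), without WT replicate 1 (-0.48, 0.446) and without knockdown replicate 2 (-0.81, 0.16), and over 13 other fits and subsets its adjusted p ran from 0.000529 to 0.446. The log2 ratio of Rpl22l1 to Rpl22 per transcript length was -2.63 and -2.54 in the knockdown libraries, against 0.66 and -0.41 in WT.

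The remaining copies had positive log2 fold changes, of which 1 passed. Rpl7l1, a protein related to Rpl7 that acts in assembly of the large subunit, rose to 119 and 83.7 CPM in the knockdown libraries, against 48.9 and 48.8 CPM in WT (log2 fold change 1.06, SE 0.30; edgeR, adjusted p = 0.0134), while Rpl7 did not pass (0.60, SE 0.37). Rps27l, a copy of Rps27 and in other tissues a p53 target, had 171 and 68.5 CPM in the knockdown libraries, against 69.1 and 50.2 CPM in WT, and its parent had 223 and 101 CPM, against 268 and 147 CPM in WT. Neither gene of that pair passed. Rpl3l, best known as the striated muscle form of Rpl3, was low in all libraries at 2.46 and 2.64 CPM in the knockdown and 1.49 and 1.77 CPM in WT, and did not pass (0.64, SE 0.57; edgeR, adjusted p = 0.353). Its parent Rpl3, at the peptidyl transferase centre, rose to 430.0 and 259.9 CPM in the knockdown libraries, against 149.8 and 171.8 CPM in WT (1.10, SE 0.33; edgeR, adjusted p = 0.0174).

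Across all 87 members that passed the filter on low counts, 21 were called higher, 1 lower and 65 in neither direction. That is 24.1% higher and 1.15% lower, where 27.4% of all genes tested were called higher and 33.5% lower. The share called higher is close to that of all genes, and among genes with a mean of at least 10 CPM the shares were 31.5% higher and 31.8% lower. The median log2 fold change of the members was 0.54, with quartiles of 0.09 and 1.03, against -0.12 for all genes with quartiles of -2.19 and 1.53. Of the 87, 36 had both knockdown libraries above both WT libraries and 3 had both below, where 39.0% and 43.7% of all genes tested did. Rpl32l, the member left out by the filter, had 6 to 10 counts per library.

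**Figure D2:**
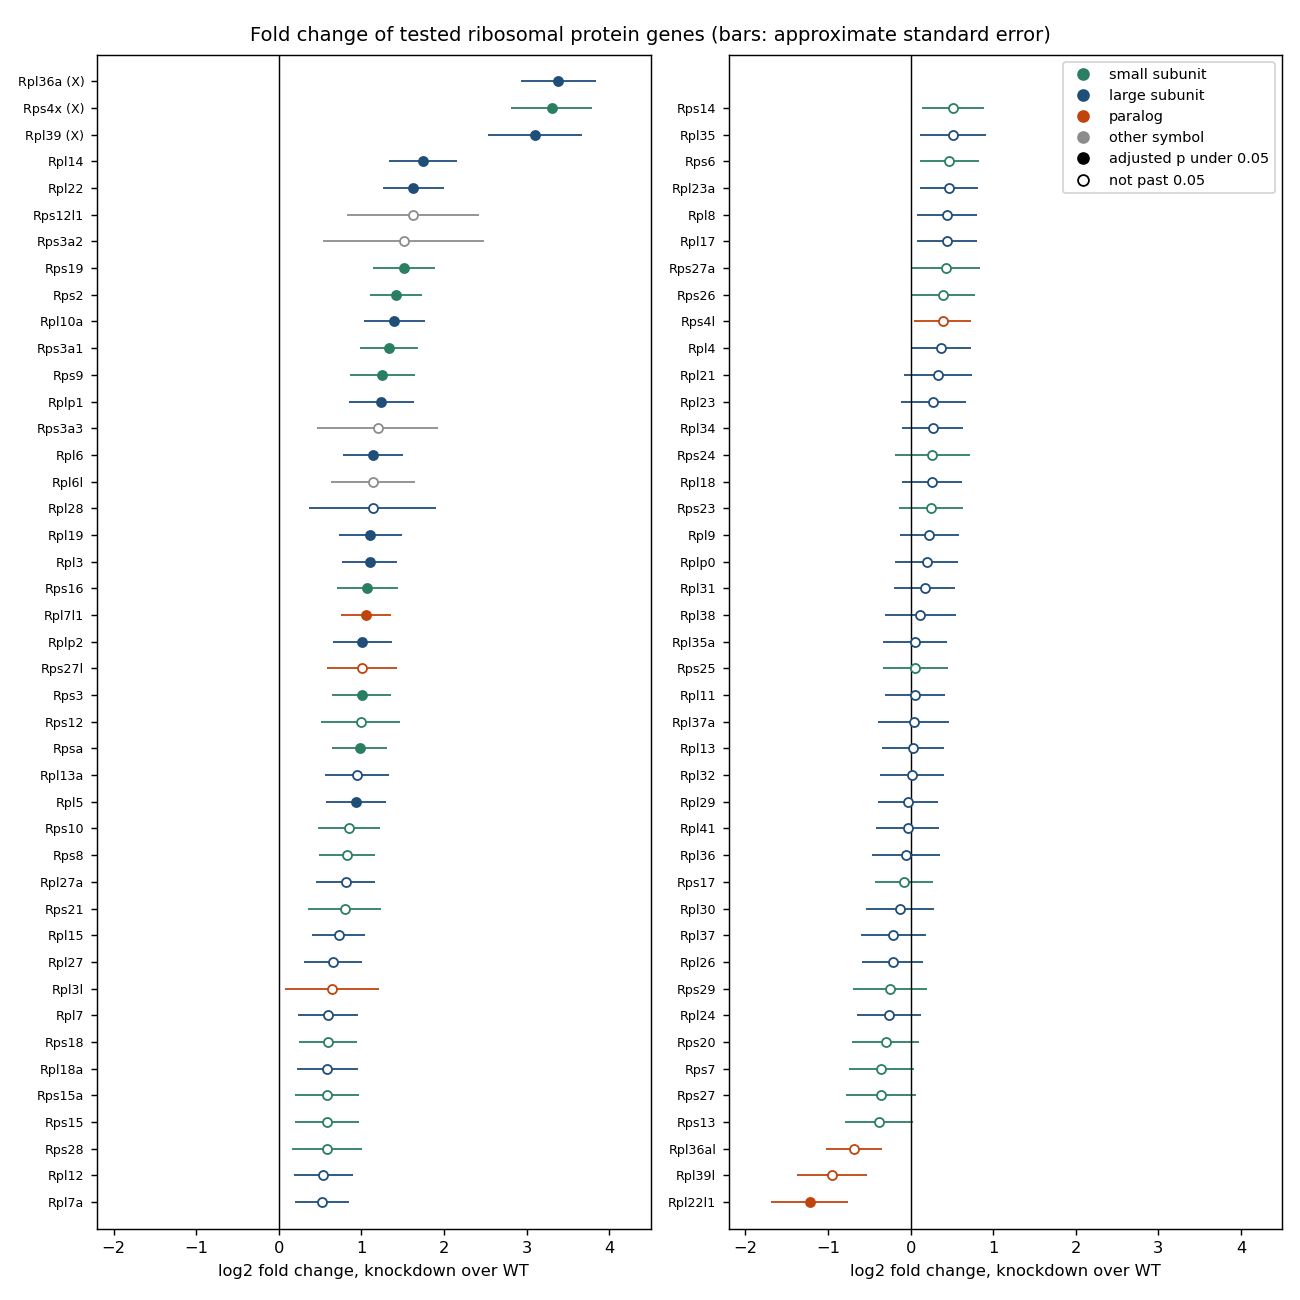
Log2 fold change, knockdown over WT, of tested ribosomal protein genes with approximate standard errors, in 2 columns by size and coloured by subunit or class. Filled points are past an adjusted p of 0.05, and the 3 X-linked genes stand apart at 3.10 to 3.38 while the next, Rpl14, is at 1.75.

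The calls were spread over both subunits. Of the 31 canonical small subunit genes 9 rose (29.0%) and 22 did not pass, with a median log2 fold change of 0.59. Of the 45 canonical large subunit genes 11 rose (24.4%) and 34 did not pass, with a median of 0.44. Both shares are near the 27.4% of all genes tested that were called higher, while 33.5% of all genes were called lower. The ratio of small to large subunit counts was 0.633 and 0.614 in the knockdown libraries, against 0.624 and 0.562 in WT libraries, and these ranges overlap. Among the autosomal canonical genes 17 of 73 rose (23.3%), 0 fell, and the extremes were Rpl14 at 1.75 and Rps13 at -0.38. The 0 that fell were counted with edgeR's quasi-likelihood test, by which 0 were also lower at an unadjusted p under 0.05, and DESeq2 called 0 lower and 15 higher. Without knockdown replicate 1 edgeR called Rpl24, Rpl36, Rpl37, Rps7, Rps13, Rps20 and Rps29 lower.

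The autosomal genes with the smallest p were spread over both subunits. Rps2, at the mRNA entry of the small subunit, had 481 and 326 CPM in the knockdown libraries, against 156 and 147 CPM in WT (log2 fold change 1.42, SE 0.32; edgeR, adjusted p = 0.00401). Rpl14, of the large subunit, had 497 and 218 CPM in the knockdown libraries, against 119 and 93.8 CPM in WT (1.75, SE 0.41; edgeR, adjusted p = 0.00499). Rps19, needed for maturation of the small subunit and mutated in Diamond-Blackfan anaemia in humans, had 278 and 133 CPM in the knockdown libraries, against 74.0 and 70.0 CPM in WT (1.51, SE 0.37; edgeR, adjusted p = 0.00663). In each of these genes knockdown replicate 2 was the nearer to WT and still lay above both WT libraries.

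Rpl10a, of the stalk where spent tRNA leaves, had 428 and 216 CPM in the knockdown libraries, against 120.0 and 124.5 CPM in WT (1.40, SE 0.37; edgeR, adjusted p = 0.00873). Rps3a1, near where mRNA leaves the small subunit, had 417 and 239 CPM in the knockdown libraries, against 146 and 114 CPM in WT (1.33, SE 0.35), and Rps9, of the small subunit body, had 555 and 252 CPM, against 184 and 155 CPM in WT (1.25, SE 0.39). These groups too did not overlap. Others among the autosomal canonical genes that rose were Rpl22 and Rpl3, given above, and Rplp1, Rplp2, Rpl5, Rpl6, Rpl19, Rps3, Rps16 and Rpsa, with log2 fold changes from 0.94 to 1.24. Rps2, Rpl14, Rpl22, Rps19 and Rpl10a, with the 3 X-linked genes, passed as higher without each library in turn.

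The P stalk, which recruits the translation factors that split GTP, was divided. Rplp1 and Rplp2, its small acidic proteins, had log2 fold changes of 1.24 (SE 0.39) for Rplp1 and 1.01 (SE 0.36) for Rplp2, and passed. Rplp0, their anchor and at 874 CPM per kilobase of transcript second to Rpl41 among the members, had 1629 and 905 CPM in the knockdown libraries, against 1112 and 1105 CPM in WT (0.19, SE 0.38; edgeR, adjusted p = 0.678). Its knockdown libraries lay on either side of WT. The same held for Rpl41, the shortest ribosomal protein, with 662 and 314 CPM in the knockdown libraries, against 483 and 518 CPM in WT, and for Rpl13 with 825 and 423 CPM, against 644 and 581 CPM in WT. Rpl4, which reaches into the exit tunnel, had 799 and 464 CPM in the knockdown libraries, against 519 and 456 CPM in WT, and did not pass (0.37, SE 0.35).

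Rpl5 and Rpl11, which enter the large subunit together with 5S ribosomal RNA and outside the ribosome bind the p53 inhibitor Mdm2, differed in their calls. Rpl5 had 452 and 233 CPM in the knockdown libraries, against 188 and 170.5 CPM in WT (log2 fold change 0.94, SE 0.36; edgeR, adjusted p = 0.047). Rpl11 had 348 and 172 CPM in the knockdown libraries, against 247 and 256 CPM in WT (0.05, SE 0.36; edgeR, adjusted p = 0.916). The Rpl11 libraries of the knockdown lay on either side of WT, as those of Rplp0 did. The difference between the changes of Rpl5 and Rpl11 was not tested.

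Lowest among the autosomal canonical genes were Rps13, Rps27, Rps7 and Rps20, all of the small subunit, with log2 fold changes of -0.38, -0.36, -0.35 and -0.30. Their knockdown and WT libraries overlapped. None of the 4 passed, and in each knockdown replicate 2 was the lowest library.

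Of the genes with a member-like symbol that are not counted as paralogs, 4 processed pseudogenes were tested (Rpl6l, Rps12l1, Rps3a2 and Rps3a3). All 4 had both knockdown libraries above both WT libraries, as did 39.0% of all genes tested. None passed, with log2 fold changes from 1.14 to 1.62. Rps12l1, Rps3a2 and Rps3a3 had only 1 to 37 counts per library. A further 314 rows of the table are named as pseudogenes of 63 members. Adding their counts to those of the parents gave 22 members higher and 1 lower.

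Rpl28, of the large subunit, stood out for how few reads it had, and was picked out after its values were seen. It had 26 and 25 counts in the knockdown libraries, against 6 and 10 in WT. All other canonical genes had more counts over the 4 libraries. In GENCODE M21 exons of Rpl28 overlap Ube2s on the other strand, and how reads in overlapping genes were counted is not given in the sources used here. Another 4 rows named as pseudogenes of Rpl28 hold 1123 counts, against 67 on Rpl28 itself, and with them added its log2 fold change was -0.33, against 1.14 without them. The low values of Rpl28 were therefore not read as low expression, and 39 of the 88 members share exonic bases with another gene in that annotation.

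The knockdown libraries were unlike each other in the weight of ribosomal protein mRNA. Members took 3.25% of all counts in knockdown replicate 1 and 1.78% in knockdown replicate 2, against 1.47% and 1.30% in WT replicates 1 and 2. Counting error is small beside this, since the 95% Wilson intervals ran from 3.24% to 3.25% in knockdown replicate 1 and from 1.77% to 1.78% in knockdown replicate 2, for counting error only. Group means were 2.51% ± 1.04 in the knockdown and 1.39% ± 0.12 in WT (SD, n = 2 each; exact two-sided permutation p = 0.333, the smallest possible). The median autosomal canonical gene had 355 and 172 CPM in the knockdown libraries, against 194 and 170 CPM in WT, so knockdown replicate 2 lay within the WT range and replicate 1 far above it.

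**Figure D3:**
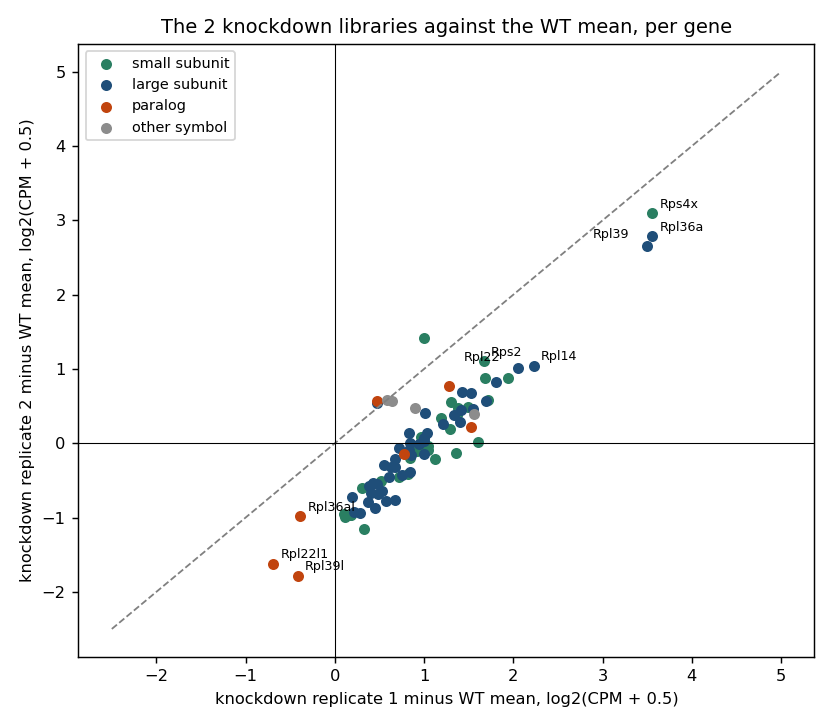
Each tested member's level in knockdown replicate 1 (horizontal) and knockdown replicate 2 (vertical) minus the WT mean, in log2(CPM + 0.5), with the line of equality dashed. Nearly all points lie below the line by about 1 unit, the median gap being 0.99, and the X-linked genes at the upper right are above WT in both.

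The gap between the knockdown libraries ran through nearly every member. In 83 of 87 the level was higher in knockdown replicate 1, with a median log2 ratio of 0.99, whereas genes at 10 CPM or more had a median of 0.08. Between WT replicate 2 and WT replicate 1 the members' median log2 ratio was -0.15. Transcript length moved with this gap. Over genes at 10 CPM or more, the log2 ratio of knockdown replicate 1 to replicate 2 had a Spearman rho of -0.58 with transcript length (9731 genes, which share the same 4 libraries and are not independent), and genes with transcripts of 500 to 1000 bases had a median ratio of 0.65. The median transcript length of 71 autosomal canonical members was 751 bases. Their median gap was nonetheless larger than that of genes of like length, and the part of transcript length or RNA quality in it was not tested.

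**Figure D4:**
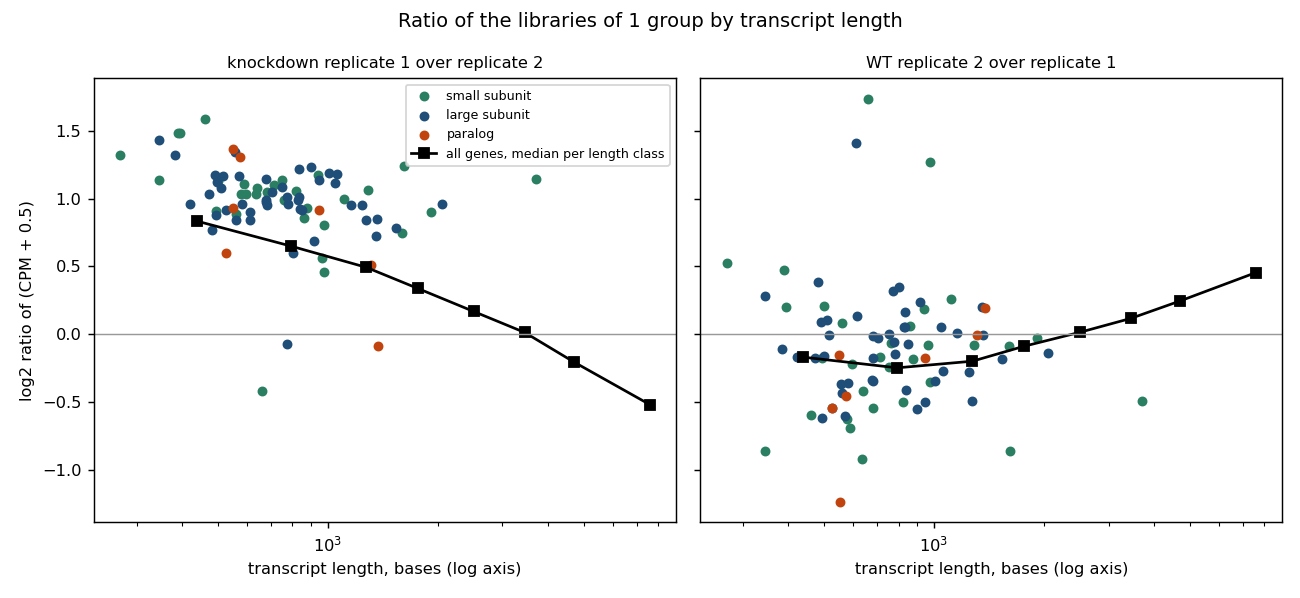
Log2 ratio of the libraries of 1 group, knockdown replicate 1 over 2 on the left and WT replicate 2 over 1 on the right, by transcript length in bases on a log axis. Points are ribosomal protein genes and black squares the medians of all genes at 10 CPM or more by length class. On the left the medians fall with length, 0.83 for the shortest class and -0.52 for the longest, and most ribosomal protein genes lie above them.

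Leaving out knockdown replicate 1 brought the members' median log2 fold change to 0.00, against -0.23 for all genes. Leaving out knockdown replicate 2 brought it to 0.95, with 51 higher and 0 lower. The scaling mattered as much. With library totals only the median was 0.96 and 43 members were higher, and scaled on 18 synaptonemal complex and cohesin genes, of which 10 had risen and 1 had fallen under TMM, it was -0.46, with 3 higher and 20 lower. Those 3 were the X-linked genes. All genes moved with the scaling too, with a median of -1.004 under that last one, against -0.12 under TMM. The members' median lay above that of all genes by 0.52 to 0.66 over the 5 scalings tried. A scaling moves all genes of a fit by nearly the same amount, so this gap could hardly change between scalings. It did change with the libraries used, to 0.23 without knockdown replicate 1 and 1.21 without knockdown replicate 2.

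Because all members could shift together, they were also compared relative to one another, by scaling the libraries on the 73 autosomal canonical genes, a setting chosen after the data were seen. In that fit 4 members were higher (Rps4x, Rpl36a, Rpl39 and Rpl14) and 2 lower (Rpl39l and Rpl22l1), where 17.7% and 31.3% of all genes tested were called. Rpl39l was lower by a log2 fold change of -1.46 (SE 0.53; edgeR, adjusted p = 0.0146) and Rpl14 higher by 1.27 (SE 0.52; adjusted p = 0.0343). The other 72 autosomal canonical genes did not pass. Because the autosomal canonical genes set this scaling, it centres their own fold changes (median 0.05). Their lack of calls therefore cannot show whether they moved together. All 6 passed without either knockdown library, with adjusted p up to 0.0237, and none did without WT replicate 1 (0.300 to 0.651) or WT replicate 2 (0.0717 to 0.458).

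Runs of C and T near transcript starts were read from RefSeq promoters (GRCm38.p6), which matched 63 members. A run of at least 8 C or T bases on the gene's own strand within 25 bases either side of the start was found in 34 of the 63 (54.0%), against 22.3% of 27025 genes. Of the 4 starts shown, that of Rpl14 has such a run and that of Rps3a1 has none, and both genes rose. Rpl4 and Rpl7a have such a run and did not pass. The marked run of Rpl4 ends upstream of its annotated start. Each window holds 15 bases either side of the annotated start, with its longest run of C and T in capitals.
Rpl14, chr9:120571502-120571531, plus strand: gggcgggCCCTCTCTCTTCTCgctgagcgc
Rps3a1, chr3:86142654-86142683, minus strand: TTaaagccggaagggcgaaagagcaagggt
Rpl4, chr9:64173372-64173401, plus strand: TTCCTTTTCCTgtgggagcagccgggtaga
Rpl7a, chr2:26910792-26910821, plus strand: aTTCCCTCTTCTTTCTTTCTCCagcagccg
Among autosomal canonical genes above 10 CPM with a promoter entry, 6 of 28 with such a run rose (median log2 fold change 0.52), as did 8 of 24 without (0.56). Annotated starts can lie off the main start by several bases, so a missing run says only that these letters are not in this window. Likewise, a run found in the window need not lie at the first base of the transcript, as a TOP tract does. The heat shock element core GAANNTTC, read on both strands over 300 bases, occurred in 4 of 63 members (Rpl22, Rpl28, Rps18 and Rps7), 6.35% against 9.04% of all genes, and the same letters followed by NNGAA in Rpl22 and Rps18, 3.17% against 0.662%.

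Rack1 and Fau encode ribosomal proteins that the symbol rule does not reach. Rack1, a scaffold on the small subunit, rose to 437 and 273 CPM in the knockdown libraries, against 153 and 182 CPM in WT (log2 fold change 1.09, SE 0.33; edgeR, adjusted p = 0.0178). Fau, a fusion with a small subunit protein, had 297 and 137 CPM in the knockdown libraries, against 212 and 178 CPM in WT, and did not pass.

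The factors that build ribosomes included genes with far larger changes. Of 85 ribosome biogenesis genes 36 rose (42.4%), 10 fell (11.8%) and 39 did not pass, where 27.4% of all genes tested were higher and 33.5% lower. Their median log2 fold change was 0.68, against -0.12 for all genes. These values, and those of the lists below, are from the TMM fit with all 4 libraries. They were not taken under another scaling or without a library. Scaling shifts every gene, and the median of all genes reached -1.004 under the choice that lowered it most. Spermatogonial and somatic markers were also higher in the knockdown libraries, and their part in these values was not tested. Noc2l, whose yeast counterpart acts in maturation of the large subunit, had 68.6 and 59.3 CPM in the knockdown libraries, against 3.04 and 3.72 CPM in WT, and Ubtf, the activator of ribosomal RNA genes, had 161 and 174 CPM, against 11.4 and 20.3 CPM in WT. Ncl, the nucleolar protein nucleolin, had 797 and 506 CPM, against 79.9 and 72.2 CPM in WT. Nop56, of the particles that methylate ribosomal RNA, had a log2 fold change of 3.15 (SE 0.35). In these 4 genes both knockdown libraries lay far above WT. Of 5 dedicated chaperones of ribosomal proteins 4 rose and 1 did not pass, against 27.4% higher among all genes, led by Tsr2, the partner of Rps26, at 3.34 (SE 0.50), with Heatr3 at 2.16 (SE 0.35), Grwd1 at 1.55 (SE 0.35) and Bccip at 1.05 (SE 0.35).

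Translation factors were divided. Of 39 initiation factor genes 9 rose (23.1%), 6 fell (15.4%) and 24 did not pass, with a median log2 fold change of -0.02. Both shares lie below the 27.4% and 33.5% of all genes tested. Eif1ax, an X-linked factor of start codon selection, rose by 2.23 (SE 0.35), Eif2b3, of the exchange factor that recharges initiation, by 2.17 (SE 0.39) and Eif4a1, the helicase, by 1.81 (SE 0.33), and Eif4e2, a cap-binding protein, fell by 1.87 (SE 0.29) on the log2 scale. Of 18 elongation and termination genes 4 rose (22.2%), 2 fell (11.1%) and 12 did not pass, with a median of 0.15, and these shares too lie below those of all genes. Gspt2, an X-linked release factor copy, rose by 3.15 (SE 0.56), Dhps, which starts the hypusine modification of Eif5a, by 1.73 (SE 0.36) and Abce1, which recycles ribosomes, by 1.03 (SE 0.28), while Hbs1l, of ribosome rescue, fell to 97.1 and 67.8 CPM in the knockdown libraries, against 197 and 147 CPM in WT.

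Of 19 regulators of ribosomal protein genes and TOP mRNAs 10 rose (52.6%), 2 fell (10.5%) and 7 did not pass, with a median log2 fold change of 0.85. Among all genes tested 27.4% were higher and 33.5% lower. As for the lists above, these counts are from the TMM fit only, and the part of other cells in them was not tested. Mycn had 10.04 and 15.4 CPM in the knockdown libraries, against 0.715 and 0.765 CPM in WT, and Myc, like it a transcription factor that drives ribosome production, had 30.8 and 28.6 CPM, against 1.01 and 3.44 CPM in WT. Eif4ebp1, the mTORC1 target that holds back cap-dependent initiation, rose by 3.01 (SE 0.43) on the log2 scale. Larp1b, a relative of the TOP-binding protein Larp1, fell to 252 and 180.0 CPM in the knockdown libraries, against 876 and 720.0 CPM in WT (log2 fold change -1.88, SE 0.33; edgeR, adjusted p = 0.00122). Larp1 itself fell to 321 and 413 CPM in the knockdown libraries, against 1067 and 1323 CPM in WT (-1.70, SE 0.34; edgeR, adjusted p = 0.00212).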

How the data were processed

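Raw counts of reads per gene, not normalized, were deposited by the authors in 1 table with a column for each library. The submitters' processing notes name HISAT2 2.2.1 and build mm39, with featureCounts 1.5.3, Trim Galore 0.6.10 and DESeq2 1.46.0. The annotation, the strand setting and how reads with several matches were counted are not stated, so members' counts, which face many processed copies, are less certain than those of single-copy genes.

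Columns were matched to samples by name. With edgeR 4.0.16 in R 4.3.3, filterByExpr kept 23594 of 36809 genes with a count. Knockdown was tested against WT with TMM scaling and quasi-likelihood, at 0.05 after Benjamini-Hochberg adjustment over those genes. The fit was tested on simulated counts. A standard error is approximate, the size of the log2 fold change over the root of F. Ratios between replicates used 0.5 CPM added, and ratios of paralog to parent 0.5 counts. Transcript lengths, exon overlaps and coding sequences came from GENCODE M21 (GRCm38) and promoters from RefSeq, matched by symbol, and no coordinate was carried between builds.

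The members, the gene lists and the rule for named genes were chosen with earlier results of these data known. The rule names paralogs with parents, X-linked members, the 6 other members with the smallest p, the 4 with the highest CPM, and up to 4 called genes per list. Larp1 was named in addition. A few genes that enter the counts are not reported here. Alternatives were DESeq2 size factors, library totals, scaling on synaptonemal complex and cohesin genes, no filter, a mean of 1 CPM, DESeq2 1.42.0, a replicate block, a 2-fold minimum, leaving out each library and added pseudogene rows.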

Additional observations from a re-analysis of the deposited data

How the results depend on the processing

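The 3 X-linked members were called higher under each of the 13 alternatives that change 1 choice, and lost the call where scaling on members was combined with leaving out a WT library. They had medians of 2.29 under the synaptonemal scaling (on synaptonemal complex and cohesin genes) and 2.75 to 4.12 without 1 library. The other counts depended on scaling and library. Members higher numbered 21, against 43 with library totals only, 3 under the synaptonemal scaling, 4 when scaled on autosomal canonical members and 9 to 51 without 1 library. Members lower numbered 1, against 0, 20 and 2 under those scalings, 2 with no filter, 0 over canonical members and 0 to 9 without 1 library. Small subunit genes higher numbered 9, against 18, 1 and 1 under those scalings and 4 to 21 without 1 library, and large subunit genes 11, against 21, 2, 3 and 5 to 26. Lower under the synaptonemal scaling were 6 small and 11 large subunit genes, and without 1 library 0 to 4 and 0 to 3. The synaptonemal scaling gave medians of -0.46 (all members), -0.41 (small), -0.55 (large) and -1.004 (all genes). Medians without 1 library ran from 0.0043 to 0.95 for all members and from 0.0032 to 1.04 for the small subunit, lowest without knockdown replicate 1. Of all genes 6467 were higher, against 2327 under the synaptonemal scaling and 4183 when scaled on members. Lower among all genes were 7902, against 9363 under the synaptonemal scaling and 7390 when scaled on members. Under the synaptonemal scaling the direction turned for members called in either fit, among them Rpl11 (-0.97), Rpl13 (-0.97), Rpl32 (-1.01), Rpl37a (-0.998) and Rpl5 (-0.062), and for members called in neither, such as Rplp0 (-0.80), Rpl4 (-0.60), Rpl7 (-0.38) and Rps4l (-0.60). The cause was not tested. The ratio of the shares of counts on members was 1.81, and 1.28 without knockdown replicate 1 and 2.34 without knockdown replicate 2. Without 1 library the paralog to parent differences ran from -5.21 to -3.48 for Rpl39l, -4.52 to -3.54 for Rpl36al, -3.89 to -2.34 for Rps4l, -3.24 to -2.17 for Rpl22l1 and -0.83 to -0.0030 for Rpl3l.

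The labels do not say that replicate numbers pair libraries. Deviations of the replicate 1 libraries from their group means correlated at 0.21 over the genes tested. With 2 libraries per group, the deviations of replicate 2 are the same with the sign turned, so they add nothing. With the replicate number as a block 30 members were higher and 3 lower. Depth was ample for the canonical members other than Rpl28, so the number of libraries, not depth, limits the comparison.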
